A study of Mus musculus with 12 samples.

Results

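The Schlafen genes form a small family that sits in 1 cluster of the mouse genome, and 7 of its members (Slfn1, Slfn2, Slfn3, Slfn4, Slfn5, Slfn8 and Slfn9) were followed here through cytokine-injected mouse ear skin. They were chosen by symbol, through the symbols the deposited tables pair with Ensembl identifiers, and are 7 of 50684 genes in the count table. All 7 had enough reads to enter the test, which covered 19408 genes. RNA-seq was done on whole ear skin of female C57BL/6 mice of 8 weeks that were given, intradermally into the ear pinna and in 5 µl, PBS alone (PBS), 1 µg of IL-17A (IL-17A), 1 µg of IL-36γ (IL-36γ), or 1 µg of each (IL-17A + IL-36γ). Treatment ran on consecutive days and tissue was taken on day 4. The study kept 5 mice in each group, of which 3 were sequenced, so each group below is n = 3 and the 12 libraries hold 25293468 to 34759293 counts. No transgene or deletion is named for these mice, and ear tissue was lysed whole, with epidermis, dermis and infiltrating cells together. A pair of libraries stood apart over all genes. PBS replicate 1 differed from PBS replicates 2 and 3 by a chi-square per gene (about 1 under sampling noise alone) of 64.0 and 49.6, against 7.09 between those, and IL-17A replicate 1 from its group by 41.1 and 53.7, against 9.20. The share of mitochondrial counts was 5.66% in IL-17A replicate 1, 4.30% and 4.55% in the other IL-17A libraries and 3.11% to 3.73% elsewhere, and skeletal muscle markers summed to 127 CPM in PBS replicate 1 but to 1710 and 1423 CPM in PBS replicates 2 and 3. Calls and signs that changed without either library are given with the value they then took, and the part of these libraries in the Schlafen values was not tested otherwise.

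Schlafen genes are known as interferon-inducible genes of immune and epithelial cells. The short members Slfn1 and Slfn2 and the intermediate members Slfn3 and Slfn4 carry the Schlafen core, and the long members Slfn5, Slfn8 and Slfn9 carry in addition a helicase-like region. Slfn1 and Slfn2 are known for restraining the growth of T cells, Slfn2 for keeping T cells and monocytes quiescent, and Slfn4 for its expression in myeloid cells under interferon. Interferons act through receptors and transcription factors that bind the interferon-stimulated response element (ISRE) of their target genes.

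The 7 genes lie within 263.8 kb of chromosome 11 (GRCm38, 82951349 to 83215154), in the order Slfn5, Slfn9, Slfn8, Slfn2, Slfn1, Slfn4 and Slfn3. Slfn8 and Slfn9 are on the minus strand and the other 5 on the plus strand. All are annotated as protein coding, with 1664 bases of exon in Slfn2 and 6326 in Slfn5 as the extremes.

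The stretches of 100 bases that end just before the RefSeq start of the gene (GRCm38.p6) are shown for 6 members. In these the promoter window lies outside annotated exons. The stretch of the long member Slfn5 is not shown and holds neither set of letters marked below. In Slfn8 and Slfn9 the capitals mark a match to the ISRE letters (GAAA, any 2 letters, GAAA), here on the opposite strand, at positions -48 to -39 and -45 to -36 from the start. In the other 4 the capitals mark ACTTCCTGG, the longest run of letters common to those stretches, which was looked for after the sequences had been seen. The search was made for a run common to these 4 genes, so that they share one is fixed by that choice. A further RefSeq window of Slfn8 overlaps an exon by 88 bases and is not shown.

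Slfn8 (chr11:83020811-83020910, minus strand): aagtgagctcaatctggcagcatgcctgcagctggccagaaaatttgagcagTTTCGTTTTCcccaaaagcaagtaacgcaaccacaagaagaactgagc
Slfn9 (chr11:82991831-82991930, minus strand): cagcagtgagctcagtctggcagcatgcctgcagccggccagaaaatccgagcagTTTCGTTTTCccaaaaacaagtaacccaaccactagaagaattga
Slfn2 (chr11:83065012-83065111, plus strand): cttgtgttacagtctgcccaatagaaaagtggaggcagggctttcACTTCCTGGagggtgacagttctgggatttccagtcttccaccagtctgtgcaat
Slfn1 (chr11:83116720-83116819, plus strand): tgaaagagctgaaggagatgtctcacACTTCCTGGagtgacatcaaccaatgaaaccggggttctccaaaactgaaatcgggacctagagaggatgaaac
Slfn4 (chr11:83175086-83175185, plus strand): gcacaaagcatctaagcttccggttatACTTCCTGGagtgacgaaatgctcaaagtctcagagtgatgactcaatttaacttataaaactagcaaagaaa
Slfn3 (chr11:83191230-83191329, plus strand): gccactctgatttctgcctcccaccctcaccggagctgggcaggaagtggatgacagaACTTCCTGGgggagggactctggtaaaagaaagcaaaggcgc

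Of the 32851 RefSeq promoter windows of the mouse, 0.983% hold the ISRE letters and 0.32% hold ACTTCCTGG, on either strand, in the same stretch of 100 bases. The share for ACTTCCTGG does not measure how unusual the run is in these genes, because it was taken from them. The Slfn8 and Slfn9 stretches align over 97 bases with 90.722% identity, so their matching letters are not independent of each other. Those of Slfn1 and Slfn4 are identical over 15 bases that contain ACTTCCTGG, so these are not independent either. Over the longer window of 250 bases before the start, Slfn5 also holds the ISRE letters, at -155 to -146 in a window that overlaps an annotated exon by 117 bases, and Slfn1, Slfn2, Slfn3 and Slfn4 do not. The ISRE letters occur in 2.977% of all windows of that length. Neither the GAS letters TTCNNNGAA (7.02% of all windows) nor the NF-kB letters (GGGA, any 2 letters, TTCC; 1.208%) occurred in the window of any member. These are matches of letters on both strands, with no measurement of binding.

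Close sequence also bears on the counts, because reads that fit several genes are left out by the counting tool's default. Slfn8 and Slfn9 transcripts were 92.56% identical over 3496 aligned bases, and Slfn3 and Slfn4 were 92.89% identical over 1406. Slfn2 was 95.25% identical to Slfn3 over a shorter stretch of 379 bases. Of all exon windows as long as a read (76 bases), none in Slfn1, 1.636% in Slfn2 and 2.948% in Slfn4 also occurred in another gene's exons. That share was 5.786% in Slfn9, 6.571% in Slfn3, 6.775% in Slfn8 and 8.112% in Slfn5, where most of it was the antisense gene Slfn5os. Slfn5os had at most 2 counts in a library, and whether strand was used in counting is not given in the sources used here. The levels of Slfn8 and Slfn9, which share windows with each other and with the pseudogene Slfn10-ps (106 to 225 counts a library), are therefore somewhat uncertain.

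All 7 genes were detected in every library, in PBS skin too. Levels are given as CPM, read counts scaled to library size, after TMM scaling. Slfn4 was at 1.301, 14.5 and 2.0 CPM in the PBS libraries (replicates 1 to 3), at 25.3, 5.02 and 5.35 in IL-17A, at 22.6, 69.4 and 27.4 in IL-36γ and at 77.9, 74.5 and 76.8 in IL-17A + IL-36γ. Slfn1 was at 0.609, 3.40 and 0.455 CPM in PBS, at 10.4, 2.43 and 3.26 in IL-17A, at 12.3, 24.4 and 14.9 in IL-36γ and at 25.5, 31.4 and 30.2 in IL-17A + IL-36γ. For both genes the libraries of IL-36γ alone and of the combination lay above every PBS library, whereas the IL-17A libraries overlapped PBS through 1 high PBS library, replicate 2.

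Slfn2, the quiescence factor, was at 12.2, 17.2 and 10.7 CPM in PBS, at 35.95, 17.5 and 19.5 in IL-17A, at 43.5, 57.6 and 37.8 in IL-36γ and at 61.1, 67.9 and 61.9 in IL-17A + IL-36γ. After TMM scaling each step in that order was without overlap between neighbouring groups. Still, IL-17A replicates 2 and 3 lay close to the highest PBS library. With scaling by library size alone, IL-17A replicate 2 (17.1 CPM) was below PBS replicate 2 (19.0 CPM). Slfn3 had the lowest group mean per exon length in every group, although in PBS replicates 1 and 3 Slfn1 and Slfn4 were lower per exon length. Slfn3 was at 2.21, 2.63 and 2.18 CPM in PBS, at 3.91, 3.39 and 3.14 in IL-17A, at 2.46, 4.26 and 3.55 in IL-36γ and at 3.71, 4.21 and 3.88 in IL-17A + IL-36γ. The 3 cytokine groups overlapped one another for Slfn3, and IL-36γ replicate 1 lay within the PBS range.

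Among the long members, Slfn5 was at 34.0, 49.3 and 33.4 CPM in PBS, at 74.4, 46.2 and 40.5 in IL-17A, at 69.0, 83.7 and 66.5 in IL-36γ and at 63.0, 88.4 and 94.5 in IL-17A + IL-36γ. Slfn8 was at 3.38, 7.19 and 4.82 CPM in PBS, at 10.6, 6.78 and 7.12 in IL-17A, at 13.3, 21.0 and 14.3 in IL-36γ and at 16.8, 21.5 and 22.2 in IL-17A + IL-36γ. Slfn9 was at 30.0, 18.5 and 18.8 CPM in PBS, at 34.1, 33.9 and 35.4 in IL-17A, at 48.4, 60.1 and 47.4 in IL-36γ and at 49.3, 52.5 and 55.9 in IL-17A + IL-36γ. Slfn9 differed from the rest in its high PBS library, which was replicate 1 rather than replicate 2, and in its 3 IL-17A libraries, which were nearly equal.

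**Figure D1:**
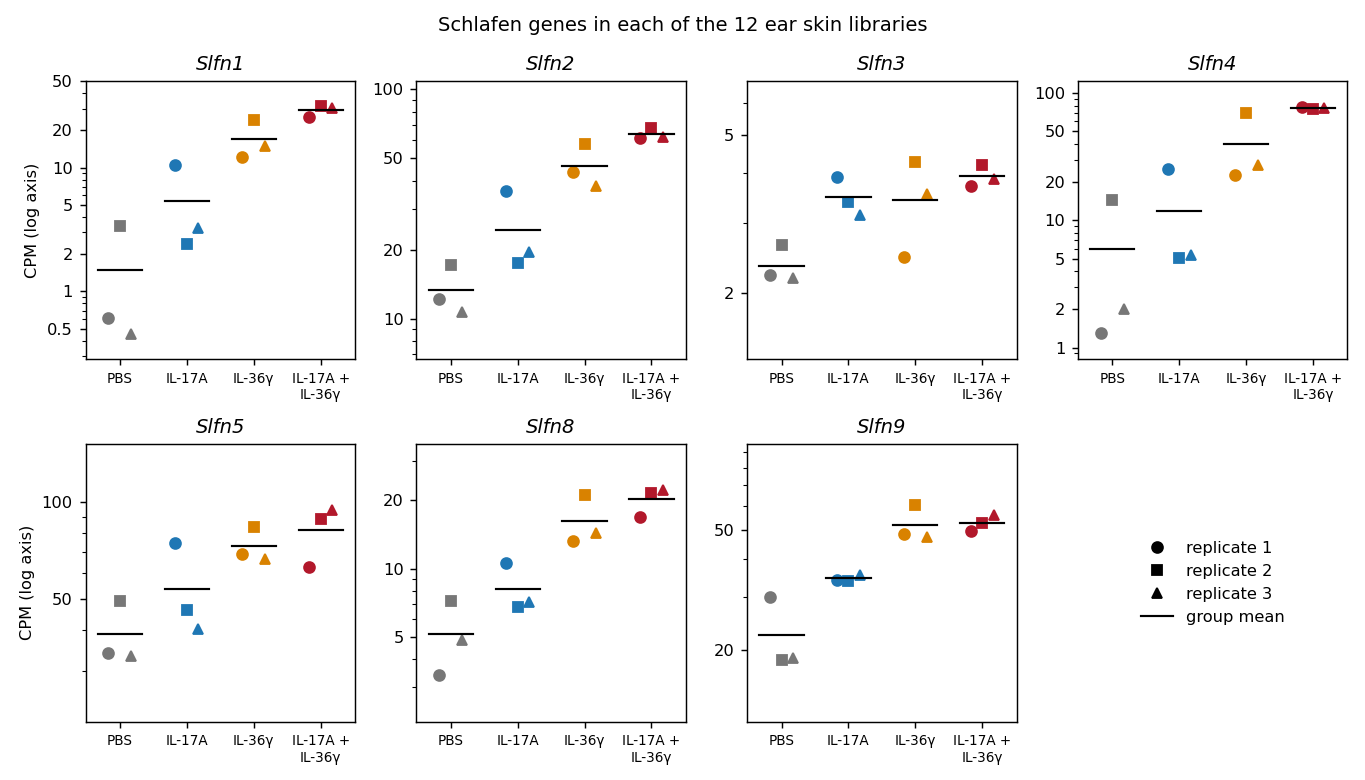
Level of each Schlafen gene in the 12 libraries, in CPM after TMM scaling on a log axis with its own range for each gene; symbols mark the replicate and the line the group mean (n = 3). The IL-17A + IL-36γ libraries lie above all PBS libraries for all 7 genes, and PBS replicate 2 and IL-17A replicate 1 stand above their groups for 6 genes but not for Slfn9.

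IL-17A against PBS asked what IL-17A alone did. No Schlafen gene passed the test (edgeR quasi-likelihood, adjusted p below 0.05 and a change of more than 1 on the log2 scale). The same thresholds were passed upwards by 1.07% of all genes tested and downwards by 1.03%. Those shares, 407 genes in all, were themselves loose, with 11 genes without PBS replicate 3, 33 without IL-17A replicate 1 and 913 without PBS replicate 1. All 7 had a positive log2 fold change, 5 of them at an unadjusted p below 0.05 (edgeR). Of all genes, 19% were higher at that p. DESeq2 also called no Schlafen gene, although it gave Slfn4 no adjusted p in any comparison. Slfn9 alone had an adjusted p below 0.05, with a log2 fold change of 0.62 (SE 0.16, adjusted p = 0.0365, edgeR) that was under the fold threshold; 7.44% of all genes were higher by that p alone. Slfn2 followed at 0.86 (SE 0.26, adjusted p = 0.0526, edgeR), and Slfn1 had the largest estimate, at 1.84 (SE 0.67, adjusted p = 0.0903, edgeR). Slfn4 was at 1.00 with a 95% confidence interval from -0.79 to 2.79. The Slfn1 and Slfn4 values turned on single libraries: without PBS replicate 2 Slfn1 was at 3.31 and passed (adjusted p = 0.0363, edgeR) and Slfn4 was at 2.84, and without IL-17A replicate 1 they were at 0.89 and -0.23. Other members moved as well. Over all alternatives Slfn2 ran from 0.44 to 1.08 and Slfn5 from 0.12 to 0.67, and neither was called. Slfn9 ran from 0.46 to 0.89, with an adjusted p (edgeR or DESeq2) as high as 0.16. After TMM scaling the groups did not overlap for 3 genes, Slfn2, Slfn3 and Slfn9, against 19.6% of all genes that were higher without overlap. Slfn2 did overlap with scaling by library size alone.

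IL-36γ against PBS showed a rise in 5 of the 7 genes: Slfn1, Slfn2, Slfn4, Slfn8 and Slfn9. Among all genes tested, 5.11% were raised. Slfn1 rose 11.5-fold (log2 3.52, SE 0.66, adjusted p = 0.00274, edgeR) and Slfn4 6.70-fold (log2 2.74, SE 0.82, adjusted p = 0.0273, edgeR). Without PBS replicate 2 these log2 values were larger, 5.00 for Slfn1 and 4.59 for Slfn4. The spread within groups was wide for Slfn4, and its call was lost without IL-36γ replicate 2 (log2 2.07, adjusted p = 0.109, edgeR), without PBS replicate 3 (2.33, adjusted p = 0.104) and in a fit of these groups alone (2.74, adjusted p = 0.0572). Slfn2 rose 3.47-fold (log2 1.79, SE 0.26, adjusted p = 0.000651, edgeR), Slfn8 3.17-fold and Slfn9 2.32-fold (log2 1.21, SE 0.16, adjusted p = 0.000373, edgeR). Slfn5 was at a log2 fold change of 0.91 (SE 0.23, adjusted p = 0.0132, edgeR), short of the fold threshold but past it without PBS replicate 2 (1.115), and Slfn3 at 0.55 (adjusted p = 0.0509, edgeR). The median over the 7 genes was 1.66, beside -0.015 over all genes tested. In 6 of the 7, all but Slfn3, every IL-36γ library lay above every PBS library, which held for 22.4% of all genes.

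With both cytokines, 6 of the 7 genes rose against PBS, all but Slfn3, where 7.35% of all genes were raised. Slfn1 was 19.4-fold higher (log2 4.28, SE 0.67, adjusted p = 0.000404, edgeR) and Slfn4 12.9-fold (log2 3.68, SE 0.85, adjusted p = 0.00421, edgeR). Without PBS replicate 2 these were 5.76 and 5.54 on the log2 scale, so the size of both changes depends on that library and their calls do not. Slfn2 was 4.76-fold higher (log2 2.25, SE 0.26, adjusted p = 7.12e-05, edgeR), Slfn8 3.94-fold, Slfn9 2.34-fold and Slfn5 2.11-fold. Slfn5, at a log2 fold change of 1.08 (SE 0.23, adjusted p = 0.00288, edgeR), was just past the fold threshold and fell under it without PBS replicate 1, PBS replicate 3 or IL-17A + IL-36γ replicate 3 (0.97 to 0.99) and with scaling by library size alone (0.93). Slfn3 had a log2 fold change of 0.75 (SE 0.19, adjusted p = 0.00816, edgeR). For all 7 genes every library with both cytokines lay above every PBS library, beside 27% of all genes higher without overlap, and the median change was 1.98, beside -0.0251 over all genes. The comparisons with PBS share the same 3 PBS libraries.

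**Figure D2:**
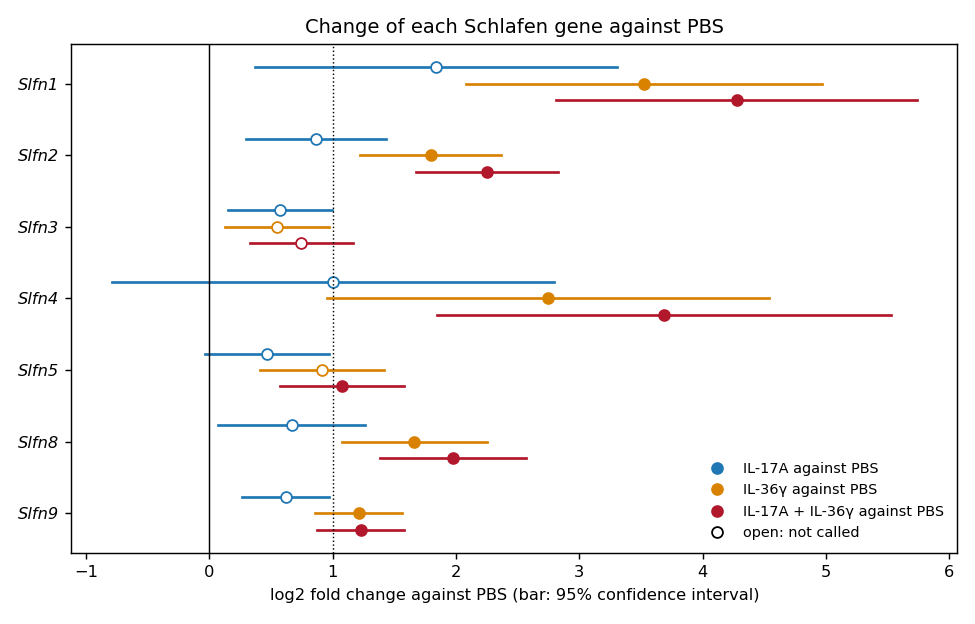
Log2 fold change of each Schlafen gene against PBS with its 95% confidence interval, for each cytokine alone and for the combination; filled points passed both thresholds and the dotted line marks the fold threshold of 1. No point is filled for IL-17A, 5 points with IL-36γ alone and 6 with the combination are, and the intervals of Slfn1 and Slfn4 are the widest.

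The effect of adding IL-17A to IL-36γ was measured by IL-17A + IL-36γ against IL-36γ. No Schlafen gene was called by edgeR or DESeq2 and none had an unadjusted p below 0.05; 0% of all genes were raised and 0.0103% lowered. All 7 estimates were positive. The largest were Slfn4 at 0.94 on the log2 scale (95% confidence interval -0.68 to 2.56) and Slfn1 at 0.75 (-0.46 to 1.96), so changes of several fold in either of them are within the error. Slfn9 was at 0.02, with an interval from -0.33 to 0.36, and was the member with the narrowest limits. Every IL-17A + IL-36γ library lay above every IL-36γ library for Slfn1, Slfn2 and Slfn4, 3 of 7 genes beside 9.33% of all genes.

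Adding IL-36γ to IL-17A was measured by IL-17A + IL-36γ against IL-17A, where 4 of the 7 genes rose (Slfn1, Slfn2, Slfn4 and Slfn8), beside 4.46% of all genes. Slfn4 was 6.43-fold higher (log2 2.69, SE 0.80, adjusted p = 0.0238, edgeR), a call lost without IL-17A replicate 2, IL-17A replicate 3 or IL-17A + IL-36γ replicate 1 (adjusted p = 0.0528 to 0.0866). Slfn1 was 5.41-fold higher, Slfn2 2.62-fold and Slfn8 2.48-fold (log2 1.31, SE 0.27, adjusted p = 0.0035, edgeR). Slfn9 was 1.53-fold higher, at 0.61 on the log2 scale (SE 0.16, adjusted p = 0.0129, edgeR), and Slfn5 was at 0.61 with more spread (adjusted p = 0.0597, edgeR).

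Set directly against each other, IL-36γ and IL-17A gave no Schlafen call at both thresholds, beside 1.25% of all genes raised. Slfn2 (0.93), Slfn8 (0.99) and Slfn9 (0.59) were higher with IL-36γ at an adjusted p of 0.0457, 0.0428 and 0.0438 (edgeR), each under the fold threshold, and 5 genes were higher at an unadjusted p below 0.05, as were 12.3% of all genes. By adjusted p alone 4.37% of all genes were higher. Slfn8 was so near the fold threshold that it was called by DESeq2 (1.00) and with either of the other scalings (1.00 and 1.03). Without IL-17A replicate 1, the high library of that group, 3 genes were called, Slfn1, Slfn2 and Slfn8. Their log2 fold changes were then 2.62, 1.34 and 1.24 (adjusted p = 0.0328, 0.00708 and 0.0341, edgeR). Slfn2 alone was called without IL-36γ replicate 3, and Slfn1 alone without PBS replicate 2. Slfn3 was at -0.02 with an interval from -0.44 to 0.39, and just above 0 with scaling by library size alone.

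Whether the combined change differed from the sum of the single changes on the log2 scale was tested as an interaction. No Schlafen gene was called, beside 0.129% of all genes positive and 0.423% negative, 107 in all, a count that ran from 1 to 1534 when 1 library was left out. The 7 estimates were all below 0, from -0.06 for Slfn4 to -1.09 for Slfn1, with intervals that included 0 for all but Slfn9 and a median of -0.37 beside -0.07 over all genes. With scaling by library size alone, which moved the median of all genes to 0.11, Slfn4 was at 0.15. Slfn9 had -0.60 (95% confidence interval -1.09 to -0.11, unadjusted p = 0.0208, adjusted p = 0.152, edgeR). Without PBS replicate 1, its high library, Slfn9 was called at -0.87 (adjusted p = 0.0144, edgeR), and DESeq2 called none of the genes on all libraries.

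Levels of different genes can be compared only per length. Summed over the family, CPM per kb of exon was 22.2 ± 6.2 in PBS, 37.8 ± 14.8 in IL-17A, 72.3 ± 19.6 in IL-36γ and 100.9 ± 6.5 in IL-17A + IL-36γ (SD, n = 3). Slfn2 had the highest mean in every group, from 8.03 CPM per kb in PBS to 38.2 in IL-17A + IL-36γ. In PBS the order that followed was Slfn5 (6.15), Slfn9 (3.76), Slfn4 (1.49), Slfn8 (1.25), Slfn1 (0.798) and Slfn3 (0.687), and of the neighbours in that order only Slfn5 and Slfn9 did not overlap. In IL-17A Slfn1 (2.88) stood above Slfn8 (1.99), with overlap, and in IL-36γ Slfn4 (10.03) and Slfn1 (9.24) stood between Slfn5 (11.5) and Slfn9 (8.71), all of them overlapping with their neighbours. In IL-17A + IL-36γ the order below Slfn2 was Slfn4 (19.3), Slfn1 (15.6), Slfn5 (13.0), Slfn9 (8.82), Slfn8 (4.94) and Slfn3 (1.15), and only Slfn1 and Slfn5 overlapped.

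The makeup of the family total therefore moved while the share of Slfn2 stayed between 35.375% and 42.566% in all 12 libraries. Slfn4 made up 5.68% ± 5.92 of the total in PBS and 19.2% ± 1.67 in IL-17A + IL-36γ, and Slfn1 3.09% ± 2.72 and 15.4% ± 0.67 (SD, n = 3). The shares of Slfn5 went from 28.0% ± 2.005 to 12.8% ± 1.92 and those of Slfn9 from 18.0% ± 7.36 to 8.74% ± 0.37. Slfn8, the near copy of Slfn9 in sequence, held 5.65% ± 1.34 and 4.87% ± 0.43. In PBS skin Slfn5 and Slfn9 together thus exceeded Slfn1 and Slfn4 in all 3 libraries, and in IL-17A + IL-36γ skin Slfn1 and Slfn4 exceeded them in all 3.

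**Figure D3:**
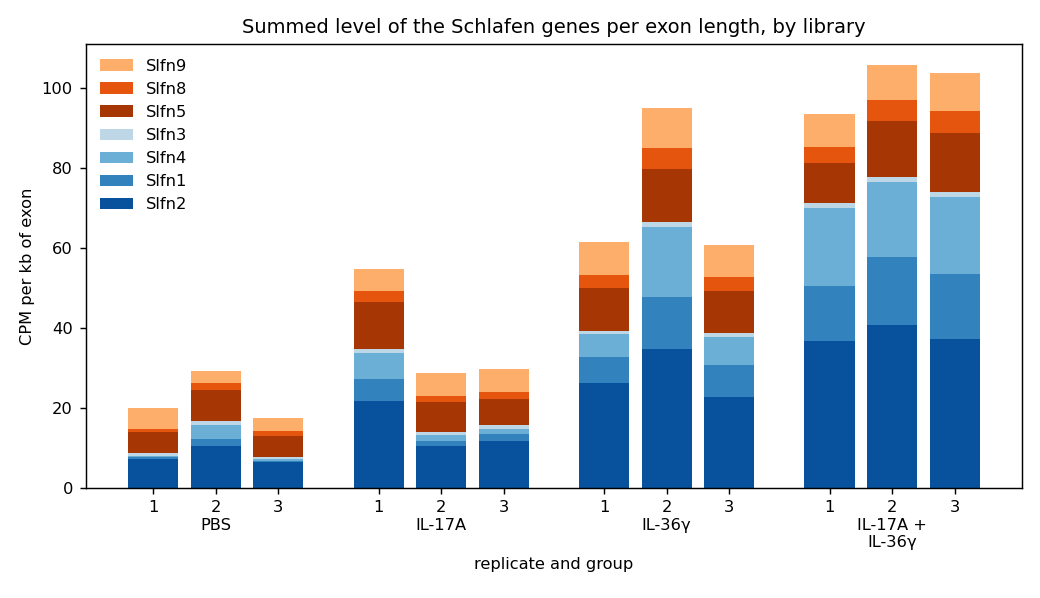
Summed level of the 7 Schlafen genes in CPM per kb of exon in each library, stacked by gene, with short and intermediate members in blue and long members in orange. The group means are 22.2 in PBS, 37.8 in IL-17A, 72.3 in IL-36γ and 100.9 in IL-17A + IL-36γ, and the Slfn4 and Slfn1 segments, thin in PBS replicates 1 and 3, are thick in all IL-17A + IL-36γ libraries.

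Mice of the same group also differed in a shared way. On the log2 scale, PBS replicate 2 was above its group mean by 2.07 for Slfn4 and 1.70 for Slfn1, and also above it for Slfn2, Slfn3, Slfn5 and Slfn8. IL-17A replicate 1 stood above its group for the same 6 genes, and IL-36γ replicate 2 for all 7, Slfn4 again the most (1.52 and 0.99). In IL-17A + IL-36γ skin the Slfn4 deviations were within 0.04 of the mean. Over the 12 deviations from group means, Pearson r was 0.96 between Slfn1 and Slfn4, 0.92 between Slfn8 and Slfn4 and 0.90 between Slfn2 and Slfn1, whereas Slfn9 had r between -0.31 and 0.12 with the other 6. These are descriptions over 12 libraries that share their groups, animals and scaling. Slfn9 was above its group mean in PBS replicate 1 (0.46) and below it in PBS replicate 2 (-0.24).

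**Figure D4:**
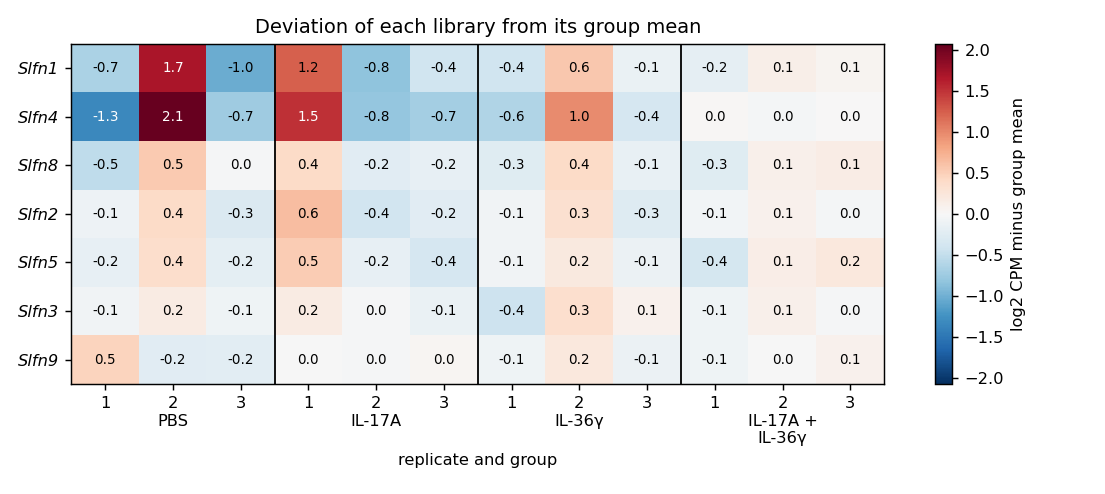
Deviation of each library from its group mean in log2 CPM (prior count 2) for the 7 Schlafen genes, printed in each cell, with blue below and red above the mean. PBS replicate 2 and IL-17A replicate 1 are red for the 6 genes other than Slfn9, while the Slfn9 row is red in PBS replicate 1.

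The genes outside the family whose log2 CPM was most like that of each member over the 12 libraries, among 15831 genes with a mean of at least 1 CPM, differed in kind. For Slfn5 they were Ifi204, Rsad2 and Ifi209 (r = 0.98, 0.98 and 0.97), which are interferon-induced genes. For Slfn8 they were Trim30a, Ifi213 and Ptprc, the last of which encodes the pan-leukocyte surface protein CD45 (all r = 0.99). For Slfn2 they were Lcp2, Lyn and Themis2, signalling genes of blood cells, for Slfn1 Fcgr1 and Krt6b, and for Slfn4 Clec7a, Ifi206 and Oas3 (r = 0.98 to 1.00). Fcgr1 encodes a macrophage Fc receptor, Clec7a the myeloid receptor dectin-1, and Krt6b a keratin of activated epidermis. For Slfn9 the nearest genes were Pclaf, Mastl and Ndc80 (r = 0.99, 0.99 and 0.98), which act in DNA replication and mitosis. Slfn3 had the loosest likeness, with Ccn5, Lims1 and Nfkbie (r = 0.93, 0.92 and 0.92). For deviations from the group means, the r of these genes was 0.77 to 0.98. Over the 12 libraries Slfn1, Slfn2, Slfn4, Slfn5 and Slfn8 were also alike among themselves (r = 0.94 to 0.98). Their different nearest genes therefore do not set these members apart from one another.

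The summed level of 8 replication and mitosis genes (Mki67, Top2a, Pcna, Mcm2, Mcm5, Cdk1, Ccnb1 and Rrm2), a list drawn up after the Slfn9 pattern was seen, was 789.52, 427.68 and 443.5 CPM in PBS replicates 1 to 3. PBS replicate 1 was thus the high library for it, as for Slfn9. The sum was 725.3 to 857.28 CPM in IL-17A, 1261.2 to 1490.7 in IL-36γ and 1657.3 to 1862.1 in IL-17A + IL-36γ. A high PBS replicate 1 was not particular to this list. Keratinocyte markers, listed below, summed to 17930, 12769 and 12488 CPM in PBS replicates 1 to 3. The part of either list in the Slfn9 values was not tested.

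Other genes of the interferon pathway were read from lists. None of the 9 interferon genes listed had enough counts to be tested: Ifna1, Ifna2, Ifna4, Ifne, Ifnl2 and Ifnl3 had 0 counts in all 12 libraries, and Ifnb1, Ifng and Ifnk at most 1, 5 and 11. Of the 5 receptor genes none was called by edgeR in any of the 3 comparisons with PBS; with both cytokines their log2 fold changes were between -0.48 (Ifnlr1) and 0.72 (Ifngr2), all under the fold threshold at an adjusted p below 0.05. Of the 5 transcription factor genes, 0 rose with IL-17A, 1 with IL-36γ and 3 with IL-17A + IL-36γ, led by Irf7 (log2 2.64, SE 0.33, adjusted p = 9.93e-05, edgeR). Of 25 interferon targets outside the family, 1 rose with IL-17A, 22 with IL-36γ and 24 with both cytokines, and none fell. The most raised with both were Oas1a, which makes the activator of RNase L (log2 4.01, SE 0.30, adjusted p = 7.32e-06, edgeR), and Zbp1, a nucleic acid sensor (3.75, SE 0.53, adjusted p = 0.000211). The median over the 25 targets was 0.69, 1.98 and 2.32 in the 3 comparisons, beside 0.67, 1.66 and 1.98 over the Schlafen genes. The summed CPM of the targets was 140.99, 217.39 and 159.7 in PBS replicates 1 to 3, again highest in replicate 2. That replicate was also the highest PBS library for the receptor and transcription factor genes (267.28 and 119.91 CPM) and for most cell type lists.

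Blood cell markers moved with the same comparisons, and in whole skin more cells of a type and more RNA per cell cannot be told apart. Of 9 neutrophil markers, 4 rose with IL-17A, 6 with IL-36γ and 8 with both, and their summed CPM was 112 to 178 in PBS, 361 to 658 in IL-17A, 1481 to 3009 in IL-36γ and 4589 to 6402 in IL-17A + IL-36γ. PBS replicate 2 was at 178 and the other two PBS libraries at 112 and 115. In the cytokine groups most of that sum was S100a9, which keratinocytes and macrophages are known to make too. It was at 3.36 to 45.2 CPM in PBS and 4341 to 6080 in IL-17A + IL-36γ. In PBS most of the sum was Il1r2 (87.8 to 102 CPM), which did not pass the test with both cytokines (log2 -0.29). Without these genes the other 7 markers summed to 17.3 to 30.6 CPM in PBS, 34.2 to 85.0 in IL-17A, 68.6 to 105.6 in IL-36γ and 120.8 to 237.1 in IL-17A + IL-36γ. Replicate 2 was again the highest PBS library and replicate 1 the highest IL-17A library. That was not particular to neutrophil markers. PBS replicate 2 had the highest PBS sum in every cell type list but B cells and keratinocytes. IL-17A replicate 1 had the highest IL-17A sum in all but dendritic and Langerhans cells and skeletal muscle. Fibroblast markers, for example, summed to 6109 and 8455 CPM in these libraries. Ly6g was at 0 in 4 libraries and had at most 22 counts. Of 10 monocyte and macrophage markers, 2, 9 and 8 rose, with summed CPM of 709 to 845 in PBS, 1167 to 1532 in IL-17A, 1820 to 2007 in IL-36γ and 1749 to 1949 in IL-17A + IL-36γ. Of 10 T cell markers, 0, 4 and 4 rose, with sums of 34.3 to 36.7 CPM in PBS, 35.9 to 42.8 in IL-17A, 41.9 to 47.4 in IL-36γ and 38.9 to 41.8 in IL-17A + IL-36γ. They did not move together: with both cytokines Cd8a was at 4.31 on the log2 scale, while Cd3g was at -0.71 and Cd247 at -0.84, each at an adjusted p below 0.05. The B cell markers summed to 0.963 to 5.91 CPM over all libraries. Of 7 keratinocyte markers, which mark the labelled tissue and were present in every library, 1, 1 and 2 rose, with sums of 12488 to 17930 CPM in PBS and 28933 to 34972 in IL-17A + IL-36γ. No marker of fibroblasts, endothelium or skeletal muscle was called against PBS, although the 5 muscle markers had log2 fold changes of -1.42 to -3.03 with both cytokines and sums of 71.0 to 588 CPM there, and 2 of them were lower than in IL-17A. Of 7 markers of dendritic and Langerhans cells, 1 fell with IL-36γ and 1 with both cytokines. The part of these cell types in the Schlafen values was not tested.

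Beyond the 7 members the annotation names Slfn14, Slfn10-ps and Slfn5os in the same region and Slfnl1 on chromosome 4. Slfn14 had at most 2 counts in a library. Slfn10-ps, a pseudogene between Slfn8 and Slfn2, had 136, 157 and 108 counts in PBS and 199, 203 and 191 in IL-17A + IL-36γ. Slfnl1, which is only Schlafen-like, went the other way in raw counts, with 23, 27 and 25 in PBS and 11, 12 and 15 in IL-17A + IL-36γ.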

How the data were processed

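RNA was extracted from homogenized ears, depleted of ribosomal RNA and made into stranded libraries read in pairs of 76 bases. The authors aligned reads to mm10 with STAR 2.5.2b and deposited raw counts per Ensembl gene from featureCounts (Subread 1.5.1); the annotation release and the strand setting are not given in the sources used here. The deposited comparison tables also hold the authors' fold changes and p-values, which were not used, and the gene symbols, which were.

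Counts were tested with edgeR 4.0.16 in R 4.3.3, as glmQLFit and glmQLFTest in 1 fit of 12 libraries with 4 group means, TMM scaling, filterByExpr with a minimum count of 10, and Benjamini-Hochberg adjustment over 19408 genes. A gene was called when its adjusted p was below 0.05 and its log2 fold change was above 1 in size, or for the interaction at an adjusted p below 0.05. Standard errors came from the fold change and its F statistic. The common biological coefficient of variation was 14.2%. The method was tested on simulated data, the outcome of which is not reported here. Alternatives included a likelihood ratio test in DESeq2 1.42.0, other scalings and filters, a replicate block, and leaving out each library.

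Exon lengths came from GENCODE vM21 and promoter windows from RefSeq (GRCm38.p6); transcripts were aligned with blastn 2.17.0, and protein identity was not analysed here. Mice are the replicates. Over all genes, the deviations of same-numbered libraries of IL-17A + IL-36γ and IL-36γ had r of 0.13, 0.19 and 0.24. Between the other groups r ran from -0.20 to 0.35. Libraries of unlike number were not compared, so these values cannot show whether the numbers mark pairs. Named genes were the 7 members, the 3 most alike genes for each, and the 2 called genes of each direction with the largest change in each interferon list; some genes that this rule names are not reported here. Members and lists were chosen with earlier results of these data known, and support nothing on their own.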

Additional observations from a re-analysis of the deposited data

How the results depend on the processing

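Across all alternatives the count of Schlafen genes raised by IL-17A + IL-36γ against IL-17A or PBS, and by IL-36γ against PBS, stayed within 1.5 times of the reported count; leaving out 1 library gave 3 to 4, 5 to 6 and 4 to 6 genes. IL-17A + IL-36γ against IL-36γ gave 0 genes throughout. IL-17A against PBS gave 1 gene with no filter on low counts (Slfn1), 1 with no fold change threshold (Slfn9), and 0 to 1 when 1 library was left out. IL-36γ against IL-17A gave 1 gene, Slfn8, with DESeq2, with DESeq2-type size factors, with library size only and with only the groups compared, 2 with no filter, 3 with no fold change threshold, and 0 to 3 when 1 library was left out. The interaction gave 0 to 1 when 1 library was left out, the 1 being Slfn9 without PBS replicate 1, where the interaction calls over all genes went from 107 to 1534; they were 1 without IL-36γ replicate 1, 3 with library size only, 883 with the replicate block and 2742 with DESeq2. The cause was not tested.

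Signs turned where estimates were small or rested on 1 library. Slfn4 in IL-17A against PBS turned to -0.23 without IL-17A replicate 1, in a range of -0.23 to 2.84, and its interaction to 0.15 with library size only and to between 0.36 and 1.18 without PBS replicate 1, PBS replicate 3, IL-36γ replicate 2 or IL-17A replicate 1 (0.42, 0.36, 0.61 and 1.18), with a lowest value of -1.895 without PBS replicate 2. The interaction of Slfn2 ranged from -0.61 to 0.030 and that of Slfn5 from -0.49 to 0.049 over the left-out libraries, both above 0 only without IL-17A replicate 1. Slfn3 in IL-36γ against IL-17A was 0.0094 with library size only, 0.08 without IL-17A replicate 1 and 0.18 without IL-36γ replicate 1, with a lowest value of -0.21. Slfn9 in IL-17A + IL-36γ against IL-36γ was below 0 without IL-17A + IL-36γ replicate 3 (-0.020), IL-36γ replicate 1 (-0.022) or IL-36γ replicate 3 (-0.039), in a range up to 0.13. DESeq2 gave Slfn4 no adjusted p.

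Scaling by library size only moved the all-gene median of the log2 fold change against PBS to -0.13 (IL-17A), -0.17 (IL-36γ) and -0.17 (both), from 0.04, -0.02 and -0.03 with TMM. Replicate numbers were shared between groups, and the deviations of same-numbered libraries had r of -0.20 to 0.35, above 0.1 in all 3 pairs only for IL-17A + IL-36γ with IL-36γ (0.13 to 0.24). No label says what a number marks. With the replicate block no Schlafen gene was called in that comparison, as without it, and 0, 5 and 6 were called against PBS, also as without it. Slfn1 had as few as 15 counts in a library, Slfn4 47 and Slfn3 72.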
